A study of Mus musculus with 2 samples.

Results

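The genes described here were 9 components of the epidermal growth factor (EGF) system in the mouse uterus, chosen by name with earlier results of these data known. They were the ligands Areg, Hbegf, Tgfa and Egf, the receptors Egfr, Erbb2 and Erbb3, and the receptor inhibitors Errfi1 and Lrig1. All 9 were among the 14678 genes of the deposited table. The animals of both groups were double transgenic females (VEGFtetO/tetO/beta-AKtg/wt). In these mice a tetR-Krab repressor driven by a beta-actin promoter sits on tet operators in the VEGF promoter, so that repression is not limited to a cell type. Doxycycline in the chow releases the repressor in the group labelled VEGF-normal (Dox+). In the VEGF-repression group (Dox-) doxycycline was withdrawn some weeks before the uteri were collected. The study's methods describe the animals of both groups as littermates taken within the same age range. Uteri were collected at gestation day 2.5, before implantation, and RNA of 3 uteri per group was pooled into 1 sequenced library. With 1 library per condition no difference below has a replicate check, and each interval covers counting error only.

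EGF-family ligands are made as membrane proteins and are cut free by sheddases. They bind ERBB receptors, which pair, phosphorylate each other and switch on the RAS-ERK and PI3K-AKT relays. Areg, Tgfa and Egf bind EGFR, Hbegf binds EGFR and ERBB4, and the neuregulins bind ERBB3 and ERBB4. Errfi1 (also called Mig-6) binds the kinase domain of active ERBB receptors and blocks it, and Lrig1 is a membrane protein that promotes receptor degradation. In the mouse uterus amphiregulin (Areg) is known as a progesterone-responsive gene of the luminal epithelium, and Hbegf as an early epithelial response around the attaching blastocyst.

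The measurement was digital gene expression (DGE), in which sequence tags are matched to reference mRNAs and a gene's count is the number of its tags. The Dox+ library held 5985925 clean tags and the Dox- library 5844314, of which 74.1% and 72.2% were assigned to genes of the table. Levels are given in tags per 1000000 clean tags (TPM), with no correction for transcript length. No gene had a count of 1, since tags seen once had been removed, and for fold changes a count of 0 was set at 3 tags, a level of 0.501 TPM for Dox+ and of 0.513 for Dox-. Vegfa, the repressed gene, had 247 tags in Dox+ and 125 in Dox-, a level 1.93-fold lower in Dox- (95% interval 1.55 to 2.41).

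Areg, Entrez gene 11839, was seen in the Dox+ library alone, with 31 tags against 0. Errfi1 (74155) and Egfr (13649) were lower in Dox- and Lrig1 (16206) was higher. For Erbb2, Hbegf, Tgfa, Egf and Erbb3 the interval of the ratio included 1. Of the 4 members with at least 200 tags in both libraries together, which is the study's own minimum for a comparison, 2 were at least 1.5-fold lower (Egfr and Errfi1), 1 was at least 1.5-fold higher (Lrig1) and 1 was neither (Erbb2). Among all 6547 genes with at least 200 tags, 14.7% were at least 1.5-fold lower, 15.2% at least 1.5-fold higher and 29.9% either, and their median log2 ratio of Dox- over Dox+ was 0.03. The 5 members under 200 tags were not counted in this way.

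**Figure D1:**
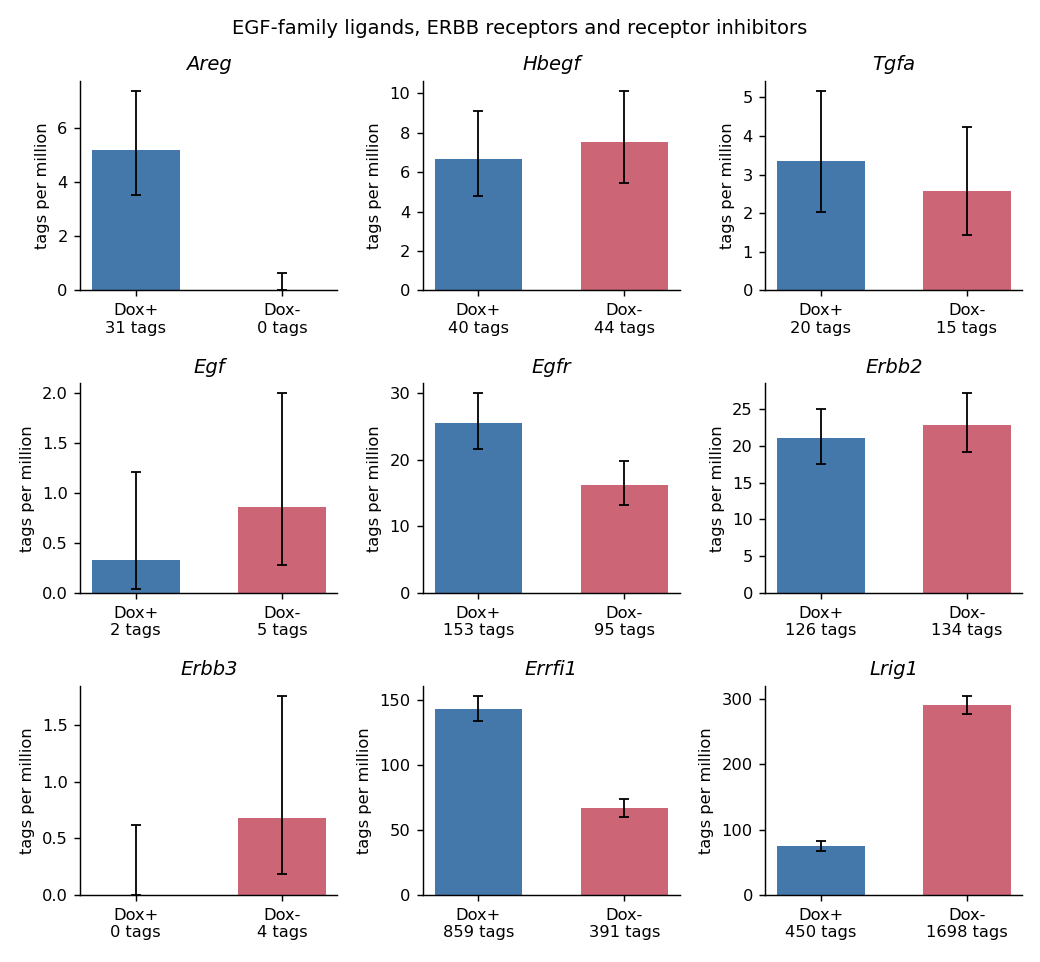
Level of each gene in TPM (y axis) in the Dox+ and Dox- libraries (bars), with exact 95% Poisson intervals of the tag count (lines) and the tags under each bar. Areg had 31 tags in Dox+ and 0 in Dox-, and Lrig1 had 450 and 1698; each panel has its own scale from 0.

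Promoter sequence is shown for the 4 members whose ratio had an interval that excluded 1, to let the reader see what lies before their starts. The windows come from RefSeq on GRCm38.p6, cover 250 bases before to 50 after an annotated start, and were found for 7 of the 9 members (not for Hbegf and Erbb3). Only the 250 bases before the start are printed, 5′ to 3′ on the gene's strand. Capitals mark matches on either strand to the cAMP response element (CRE) TGACGTCA, the GC box GGGCGG and the core of the hypoxia-inducible factor (HIF) element, ACGTG. The AP-1 site TGANTCA and the progesterone receptor core AGAACA were searched as well, and no member's window held either. The Areg window is chr5:91139349-91139598, plus strand. The Errfi1 window is chr4:150854820-150855069, plus strand, and belongs to the second of its annotated starts. The Lrig1 window is chr6:94700146-94700395, minus strand, and the Egfr window is chr11:16751953-16752202, plus strand.
Areg: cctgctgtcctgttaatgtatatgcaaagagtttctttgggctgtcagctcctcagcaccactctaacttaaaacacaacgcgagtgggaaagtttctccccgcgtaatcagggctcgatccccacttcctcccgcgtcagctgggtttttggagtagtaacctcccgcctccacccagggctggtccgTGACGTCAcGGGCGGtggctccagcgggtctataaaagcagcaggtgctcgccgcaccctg
Errfi1: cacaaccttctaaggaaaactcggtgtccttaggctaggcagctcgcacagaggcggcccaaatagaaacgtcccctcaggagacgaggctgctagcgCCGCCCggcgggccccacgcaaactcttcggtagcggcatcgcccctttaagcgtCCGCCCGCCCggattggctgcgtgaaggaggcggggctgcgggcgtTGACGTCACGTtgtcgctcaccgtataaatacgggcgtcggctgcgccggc
Lrig1: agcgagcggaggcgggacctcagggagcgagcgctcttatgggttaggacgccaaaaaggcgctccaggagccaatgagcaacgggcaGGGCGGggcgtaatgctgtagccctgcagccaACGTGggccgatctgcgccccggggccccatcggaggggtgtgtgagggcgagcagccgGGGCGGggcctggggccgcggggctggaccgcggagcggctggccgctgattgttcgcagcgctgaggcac
Egfr: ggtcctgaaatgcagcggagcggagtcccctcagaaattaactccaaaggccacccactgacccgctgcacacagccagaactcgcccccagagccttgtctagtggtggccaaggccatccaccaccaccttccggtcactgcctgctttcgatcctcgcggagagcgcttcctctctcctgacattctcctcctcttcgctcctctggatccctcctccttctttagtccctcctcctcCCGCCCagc

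Areg and Errfi1, which were both lower in Dox-, each held a complete CRE shortly before the start. Counted from the start as 1, its first base was at -61 in Areg and at -51 in Errfi1. Over all 32851 promoter windows of RefSeq 1.79% held the CRE letters, 7.81% the AP-1 site, 35.7% the GC box, 19.6% the HIF core and 19.0% the progesterone receptor core. The HIF core of Errfi1 overlaps its CRE, and its 2 nearer GC boxes overlap each other. The other Errfi1 window, further upstream, held none of the motifs, and neither did that of Erbb2. Lrig1, which was higher in Dox-, held 2 GC boxes and 1 HIF core and no CRE. Egfr, which like Areg and Errfi1 was lower in Dox-, held 1 GC box and no CRE, and Tgfa held 2 GC boxes. Areg also held 2 GC boxes, and 1 Egf window held a HIF core at -60. These are matches of letters, and binding to these promoters was not measured. The motifs were chosen with earlier results of these data known, and a link of any motif to the differences was not tested.

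**Figure D2:**
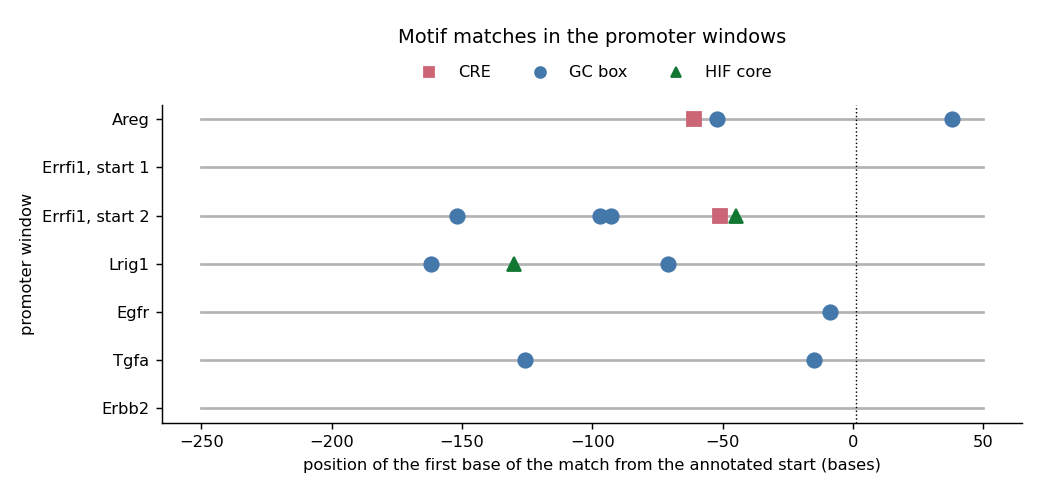
Position of motif matches (x axis, bases from the annotated start, dotted line) in the promoter windows of 6 genes (y axis), with a symbol for the first base of each CRE, GC box or HIF core. The CRE appears in Areg at -61 and in the second Errfi1 window at -51, and in no other window drawn.

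Among the ligands, Areg (chromosome 5, 91568641 to 91577458, plus strand, NCBIM37) had 31 tags in Dox+ and 0 in Dox-. This was 5.18 TPM (95% interval 3.52 to 7.35) against 0 (up to 0.631). With the 0 set at 3 tags the Areg level was 10.1-fold lower in Dox-. The exact interval of the counts begins at 7.73-fold lower, a ratio of 0.129. Areg is therefore low but present in Dox+, and its tags are few: the total of 31 is under the minimum of 200.

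Hbegf encodes heparin-binding EGF-like growth factor. Its counts were 40 in Dox+ and 44 in Dox-, or 6.68 and 7.53 TPM. The ratio was 1.13 with an interval from 0.717 to 1.77, so that a difference within these bounds was not detectable at this depth. The gene lies on chromosome 18 (36664583 to 36675459, minus strand, NCBIM37).

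Tgfa, the transforming growth factor alpha gene, had 20 tags in Dox+ and 15 in Dox-, a ratio of 0.768 (0.366 to 1.58). Egf, the founding ligand, had 2 and 5 tags. The Egf ratio from these counts was 2.56 with an interval from 0.419 to 26.9, and with the 2 tags raised to the limit of 3 it was 1.71. These counts do not settle a direction for either ligand. The Tgfa gene spans 86145420 to 86225151 of chromosome 6, and Egf 129380493 to 129458240 of chromosome 3 (NCBIM37).

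The EGFR ligands can also be described by their shares of the ligand tags in a library, a measure that does not depend on library size. With Btc (betacellulin, 26 and 36 tags) added, the 5 EGFR ligands in the table had 119 tags in Dox+ and 100 in Dox-. Areg made up 26.1% of them in Dox+ (exact binomial 95% interval 18.4 to 34.9) and 0 of 100 in Dox-, for which the exact upper limit is 3.62%. Hbegf made up 33.6% (25.2 to 42.8) and 44.0% (34.1 to 54.3), and the intervals overlap. Without Areg the ligand tags were divided in both libraries mainly among Hbegf, Btc and Tgfa. Ereg and Epgn, the remaining EGFR ligands of the list, were not analysed here.

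The receptors differed from each other. Egfr (chromosome 11, 16652206 to 16818161, plus strand, NCBIM37) had 153 tags in Dox+ and 95 in Dox-, or 25.6 and 16.3 TPM. Its level was 1.57-fold lower in Dox-, with an interval from 1.21 to 2.05 that reaches below 1.5. By its ratio it stood 832nd from the lowest of the 6547 genes. Erbb2, which has no known ligand of its own and pairs with the other receptors, had 126 tags in Dox+ and 134 in Dox-. The Erbb2 ratio was 1.09 (0.848 to 1.40), and the gene lies on the same chromosome at 98273784 to 98299030.

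Because the 2 receptor genes were counted in the same libraries, their difference can be given without any scaling. In Dox+ there were 0.824 tags of Erbb2 for each tag of Egfr, and in Dox- 1.41. The ratio of these values was 1.71, with an exact conditional interval from 1.18 to 2.48, so that the balance of the tags moved toward Erbb2 by more than counting error. This pair and those below were chosen after their values had been seen. Erbb3, the neuregulin receptor with a weak kinase, had 0 tags in Dox+ and 4 in Dox-. The lower end of the interval of its ratio was 0.676, so that these counts do not settle a direction. Erbb3 lies on chromosome 10 (128004579 to 128026708, minus strand, NCBIM37), and Erbb4, the remaining receptor, was not analysed here.

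The inhibitors had the largest counts of the 9 genes and went opposite ways. Errfi1 (chromosome 4, 150228028 to 150243001, plus strand, NCBIM37) had 859 tags in Dox+ and 391 in Dox-, or 143.5 and 66.9 TPM. The Errfi1 level was 2.15-fold lower in Dox- (1.90 to 2.42), a log2 ratio of -1.10, and the gene stood 289th from the lowest of the 6547. Lrig1 (chromosome 6, 94554523 to 94650152, minus strand, NCBIM37) had 450 tags in Dox+ and 1698 in Dox-. Its level went from 75.2 to 290.5 TPM, 3.86-fold higher in Dox- (3.48 to 4.30), a log2 ratio of 1.95. Lrig1 stood 64th from the highest of the 6547 genes, the most extreme position of the 4 members counted there.

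For each tag of Errfi1 the Dox+ library had 0.524 tags of Lrig1 and the Dox- library 4.34. Lrig1 thus went from the less to the more abundant of the 2 inhibitors by tags, and the ratio of the 2 values was 8.28 (7.05 to 9.74). Lrig3, a relative of Lrig1, had 169 tags in each library. Lrig1 relative to Lrig3 was 3.77-fold higher in Dox- (2.95 to 4.82). Errfi1 relative to Egfr was 0.733 times as high in Dox- as in Dox+ (0.548 to 0.984), so that the difference between the libraries was larger for Errfi1, with an interval that ends close to 1. Lrig1 relative to Egfr was 6.07-fold higher (4.57 to 8.10).

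**Figure D3:**
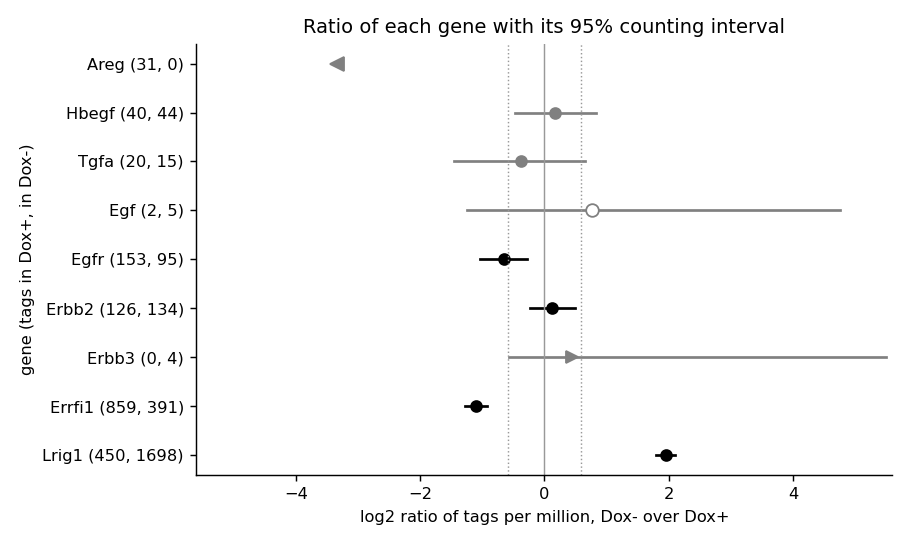
Log2 ratio of TPM, Dox- over Dox+ (x axis), of each gene (y axis, with its tags in both libraries), with 95% counting intervals (lines). No line is drawn for Areg, and the line of Erbb3 is cut near the edge because its upper end is open. Black marks genes with at least 200 tags together and grey the others, and dotted lines mark 1.5-fold. Triangles are ratios with the 0 set at 3 tags, the open circle is Egf with its 2 tags raised to 3, and Lrig1, Errfi1, Egfr and Areg lie away from 0.

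Levels of different genes were compared per kilobase of the longest annotated transcript, since it is not settled whether the tags scale with transcript length. The study's methods describe tags, and if their number does not grow with length the uncorrected levels apply. Errfi1 and Lrig1 ranked highest with and without the correction. On this scale, in TPM per kilobase, Errfi1 stood highest in Dox+ with 47.2, followed by Lrig1 with 15.2. Areg with 4.32 and Erbb2 with 4.2 came next and did not differ beyond their intervals, nor did Erbb2 and Hbegf (2.82), or Hbegf and Egfr (2.50). Tgfa with 0.888 was below Egfr, and Egf and Erbb3 were last with overlapping intervals. In Dox- the order began with Lrig1 at 58.7 and Errfi1 at 22. Tgfa (0.682) and Egf (0.180), Egf and Erbb3 (0.114), and Erbb3 and Areg (0, up to 0.526) overlapped there, so that the order at the low end is not settled. Erbb2 (4.57) and Hbegf (3.17) overlapped there, while Egfr with 1.59 was below Hbegf by more than counting error. Without the length correction Egfr stood above Erbb2 in Dox+, at 25.6 TPM (21.7 to 29.9) against 21.0 (17.5 to 25.1), but these intervals overlap. With the correction Egfr stood below, because its longest transcript has 10.2 kilobases against 5.01 for Erbb2. The place of Areg in Dox+ also rests on this correction: it ranked 6 among the members without it and 3 with it.

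**Figure D4:**
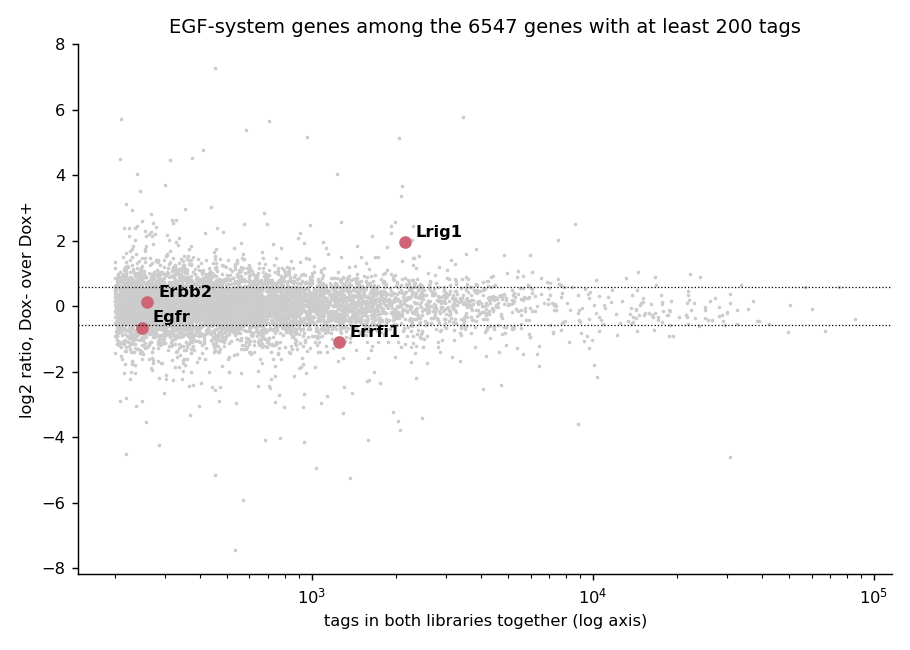
Log2 ratio of Dox- over Dox+ (y axis) against the tags in both libraries together (x axis, log scale) for the 6547 genes with at least 200 tags (grey points), with the 4 EGF-system genes among them (red) and 1.5-fold (dotted lines). Lrig1, at 1.95 and 2148 tags, lies near the upper edge of genes of similar count, Errfi1 at -1.10 lies below the 1.5-fold line, and Erbb2 lies in the middle.

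The rest of the pathway was followed with 8 lists of 81 genes, of which 75 were in the table and 46 had at least 200 tags. Of these 46 genes, 10 were at least 1.5-fold higher in Dox-, 2 were at least 1.5-fold lower and 34 were neither. Their median log2 ratio was 0.18, beside 0.03 over all genes. Of the 46, 21.7% were higher and 4.35% were lower, beside 15.2% and 14.7% of all genes.

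Of the 7 other EGF-family ligands, 5 were in the table and 1 had at least 200 tags. This was Nrg2, a neuregulin, with 38 tags in Dox+ and 201 in Dox-, 5.42-fold higher (log2 ratio 2.44). Nrg1, named after its values were seen, had 0 tags in Dox+ and 35 in Dox-, and was 11.9-fold higher with the 0 set at 3 tags. The exact interval of the counts begins at 9.21-fold. Nrg4 had 21 and 10 tags, and its interval included 1.

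Among the sheddases and their regulators, 2 of 7 genes were higher, 1 was lower and 4 were neither, with a median of 0.19. Adam12, a metalloprotease known to shed Hbegf and the gene of this list with the most tags, had 339 tags in Dox+ and 936 in Dox- and was 2.83-fold higher. Rhbdf1 encodes an inactive rhomboid that helps the sheddase ADAM17 mature, and its 81 and 168 tags gave a level 2.12-fold higher in Dox-. Timp3, the sheddase inhibitor, was lower, with 823 and 408 tags. Adam17 itself had 51 and 87 tags and was under the minimum of 200.

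Of the 14 genes of the adaptors and the RAS-ERK relay with at least 200 tags, 0 passed 1.5-fold in either direction, and their log2 ratios ran from -0.42 to 0.53 with a median of 0.32. Map2k2, a MAP kinase kinase and the gene with the most tags, had 1628 tags in Dox+ and 1189 in Dox-, the lowest ratio of these 14. Of 7 genes of the PI3K-AKT relay with at least 200 tags, 2 were higher, with a median of 0.10 over the list. These were Akt2 (194 and 404 tags, 2.13-fold) and Pdpk1 (124 and 208 tags, 1.72-fold). Akt1, with the most tags, had 2541 and 2654.

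Of 6 other genes of receptor feedback and degradation, 1 was higher (Hgs, at 1.51-fold) and 0 were lower. Hgs was under 1.5-fold with TMM factors or DESeq2 size factors. Lrrk1, with the most tags, had 346 in Dox+ and 371 in Dox-. The feedback inhibitors of the ERK pathway had 9 genes in the table and 4 with at least 200 tags. Of these 4, 3 were higher, beside 15.2% of all genes, with a median of 0.70. That median fell to 0.56 from 20 tags and to 0.49 with no filter. Dusp6, the phosphatase of ERK, had 48 tags in Dox+ and 215 in Dox-, 4.59-fold higher, and the Sprouty genes Spry1 and Spry2 were higher by 1.71-fold and 1.54-fold, with Spry2 under 1.5-fold by DESeq2 size factors. Rasa1, with the most tags of this list, had 159 and 189. Of 7 early response genes 1 was higher (Junb), and 6 were neither, with a median of -0.14 and a mean near 0. Ccnd1, the early response gene with the most tags, had 912 and 806.

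**Figure D5:**
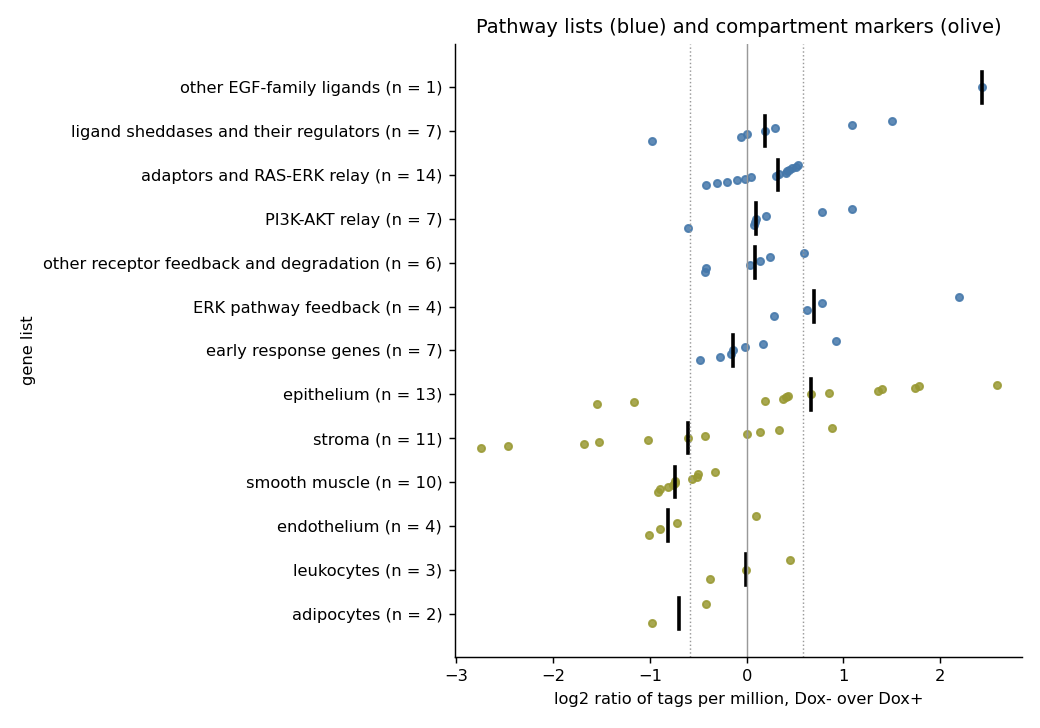
Log2 ratio of TPM, Dox- over Dox+ (x axis), of the genes with at least 200 tags in each list (y axis, n in parentheses), with the median of each list as a black bar and 1.5-fold as dotted lines. In the RAS-ERK relay the 14 points lie within 1.5-fold, while 3 of 4 ERK feedback genes lie above it; 6 of 10 smooth muscle markers lie below it and 7 of 13 epithelial markers above it.

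The samples were whole uterus, in which fewer cells of a type and less RNA per cell cannot be told apart. Markers of its compartments were present in both libraries, none of the epithelial, stromal, smooth muscle and endothelial markers in the table at 0. The 15 epithelial markers had summed levels of 1344 (Dox+) and 1990 TPM (Dox-), and of 13 with at least 200 tags 7 were higher and 2 were lower. The 11 stromal markers in the table went from 2581 to 1850 TPM, with 1 of 11 higher and 6 lower. They were mixed: Hand2 was 6.73-fold and Hoxa11 3.20-fold lower, while Lum was 1.84-fold and Dcn 1.26-fold higher. The 10 smooth muscle markers went from 8194 to 5483 TPM, with 6 lower. The endothelial list went from 244 to 164 TPM, with 3 of 4 lower. Over all genes with at least 200 tags 15.2% were higher and 14.7% lower. The leukocyte and adipocyte lists had 3 and 2 genes with at least 200 tags, and their sums were 117 and 148 TPM and 108 and 62.6 TPM. These shifts ran alongside the higher Lrig1 and the lower Egfr and Errfi1, and their part in those differences was not tested. Areg, known as a gene of the luminal epithelium, had few tags in Dox+ (31) and 0 in Dox-. Of the epithelial markers 7 were higher and 2 were lower in Dox-, and their part in the Areg difference was not tested either.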

How the data were processed

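Each condition was measured in 1 library from RNA of 3 pooled uteri, so that no test between conditions was possible. Per the file headers and the study's methods, the deposited counts are the tags that the authors assigned unambiguously to each gene, after removal of adaptor-only tags, low quality tags and tags seen once. Reference mRNAs were those of mm9, the labels name CASAVA, and the aligner is not given in the sources used here. The deposited TPM values are counts per 1000000 clean tags, with 0.01 written by the authors at a count of 0. They were used here to recover the clean tags of each library, as the whole number that returns every TPM. The labels describe fragmented mRNA while the methods describe tags, and the table does not separate sense from antisense tags, so that levels of genes were compared per kilobase and overlapping antisense tags could not be told apart. Columns with the authors' ratios, P-values and FDR were not used.

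Ratios were computed as tags per clean tag, Dox- over Dox+, with exact Clopper-Pearson 95% intervals that cover counting error only. Counts of 3 or fewer were set to 3 for fold changes. Genes with at least 200 tags in both libraries together were compared at 1.5-fold. Members were described in full, and of each pathway list the gene with the most tags and each gene past 2-fold with at least 200 tags were named. Other genes were named where a count was small, after their values were seen, and 1 gene of the pathway lists is not reported here. The members, lists, motifs and rules were chosen with earlier results of these data known. Positions and transcript lengths were taken from GENCODE vM1 on NCBIM37, which is mm9, and promoters from RefSeq on GRCm38.p6. The interval method was tested on simulated data. Python 3.11.15 with scipy 1.17.1, and R 4.3.3 with edgeR 4.0.16 and DESeq2 1.42.0 for scaling factors alone, were used.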

Additional observations from a re-analysis of the deposited data

How the results depend on the processing

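With the sum of counted tags, TMM factors, DESeq2 size factors or a pseudocount of 1 tag, each of the 9 member ratios kept its direction, and 2 members stayed lower and 1 higher at 1.5-fold. The median log2 ratio of all genes with at least 200 tags lay between 0 and 0.07 over these scalings. At 2-fold 1 member was higher (Lrig1) and 1 was lower (Errfi1), with 302 genes higher and 368 lower of all genes, against 994 and 961 at 1.5-fold. The Audic-Claverie test at an FDR below 0.05, which compares the 2 libraries and not the conditions, left the calls at 1.5-fold as they were. With an assumed spread between pools of 0.2 (coefficient of variation), the interval excluded 1 for 1 lower member (Errfi1), and with 0.4 for 0, while Lrig1 was still counted as higher in both. All genes counted were then 478 higher and 518 lower with 0.2, and 87 and 105 with 0.4. The true variation cannot be had from 1 library per condition. With no filter on tags 2 members were higher (Egf with Lrig1) and 3 lower (with Areg), and all genes past 1.5-fold were 2869 higher and 2830 lower, against 2385 and 2256 from 20 tags. Of the pathway genes, 10 higher and 2 lower became 20 and 6 from 20 tags and 20 and 7 with no filter. More genes were then counted, and the shares over all genes rose as well. They were 19.7% higher and 18.7% lower of 12079 genes from 20 tags, and 19.5% and 19.3% of 14678 with no filter. The higher genes were 9 with TMM factors, without Hgs, and 8 with DESeq2 size factors, without Hgs and Spry2. From 100 tags 14 pathway genes were higher and 4 lower, beside 16.6% and 15.6% of all 8856 genes. With the sum of counted tags 1 pathway gene was lower, beside 13.7% of all genes. Without a floor for its 2 tags the log2 ratio of Egf was 1.36, an alternative chosen after seeing the data. Per kilobase, 4 of 18 ranks of the members' levels changed. No paired analysis was possible because each condition has 1 library.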

Other observations

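Of the 75 pathway genes with a count, 29 lay under the minimum of 200 tags, and 10 of these had counting intervals that excluded 1, 8 of them higher and 2 lower in Dox-. The same share over all genes under 200 tags was not computed, so these counts are not read as a result about the pathway. The genes named here were picked after their values were seen. Fos, an early response gene downstream of ERK, had 25 tags in Dox+ and 116 in Dox-, 4.75-fold higher (95% interval 3.06 to 7.64). Ier3, another early response gene, had 53 and 135 tags, 2.61-fold higher (1.89 to 3.66). Spred2, an inhibitor of RAS-ERK signaling, had 16 and 45 tags, 2.88-fold higher (1.60 to 5.46). Adam17, the main sheddase of Areg and Tgfa, had 51 and 87 tags, 1.75-fold higher (1.22 to 2.52). The 2 lower genes were Gab1, a docking protein of the receptors, with 104 and 54 tags (1.88-fold lower, 1.34 to 2.66), and Mtor, a kinase downstream of AKT, with 98 and 60 tags (1.59-fold lower, 1.14 to 2.24).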
